A study of Rattus norvegicus with 15 samples.

Results

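The genes examined here are 10 genes of the cell division cycle: Mki67, Top2a, Ccnb1, Ccnd1, Ccnd2, Ccne1, Pcna, Cdkn1a, Cdkn1b and Cdkn1c. Every probe whose gene name in the array annotation was that of a member was taken, once the endings _predicted and _mapped had been removed. The rule found 20 probes among the 41012 probes of the array, with a single probe for Mki67 and for Ccnd2, 4 for Cdkn1c and a pair for each of the other genes. No measured value entered the choice of probes. RNA came from the olfactory epithelium of 8 untreated Brown Norway rats, labelled as aged 6 weeks, and was hybridized to 15 single-color whole rat genome arrays. The 4 males (rats 1, 2, 5 and 6) gave 7 arrays, because male 1 was measured in nostril A only. The 4 females (rats 3, 4, 7 and 8) gave 8 arrays. The labels give neither the supplier of a rat nor which of nostrils A and B is the left, so suppliers were not compared here.

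Olfactory neurons die and are replaced throughout life, and the epithelium is known for this. The replacements come from basal cells: globose basal cells divide and give rise to neurons, and horizontal basal cells form a reserve that is largely at rest. A dividing cell passes from G1 through DNA synthesis (S phase) and G2 into mitosis. Cyclins activate the cyclin-dependent kinases that drive each step, D and E cyclins in G1 and B cyclins at mitosis, while inhibitors of the p21 family hold these kinases back. RNA of a whole epithelium mixes dividing and resting cells, so fewer dividing cells and less RNA per cell cannot be told apart.

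The transcripts were read out by short probes, whose sequences fix what was measured. Given here are the 60-base array probes of 5 genes as examples, for Top2a and Pcna the second probe, in lower case from 5′ to 3′. The array annotation places them on build rn3 of the rat genome, on the minus strand. The intervals are chr1:195464455-195464514 for Mki67, chr10:87787847-87788029 for Top2a, chr2:31495178-31495417 for Ccnb1, chr4:163779968-163786792 for Ccnd2 and chr3:119916790-119916994 for Pcna. All but that of Mki67 are longer than the 60 bases of the probe, by the most for Ccnd2 (6825 bases). The annotation used here names no exon, intron or untranslated region.
Mki67 probe A_44_P510940: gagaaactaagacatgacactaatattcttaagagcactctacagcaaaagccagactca
Top2a probe A_43_P12148: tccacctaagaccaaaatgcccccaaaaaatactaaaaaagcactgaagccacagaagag
Ccnb1 probe A_44_P534089: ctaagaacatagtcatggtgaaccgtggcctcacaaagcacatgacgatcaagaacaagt
Ccnd2 probe A_44_P477768: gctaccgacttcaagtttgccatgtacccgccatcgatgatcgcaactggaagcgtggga
Pcna probe A_44_P242756: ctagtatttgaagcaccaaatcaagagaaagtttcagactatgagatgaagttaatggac

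Promoter sequence bears on these genes because genes of G2 and mitosis are known to share the CCAAT box and the cell cycle homology region (CHR, TTTGAA), whereas many genes of DNA replication carry sites for E2F. The 250 bases before the gene start are given from RefSeq on build GRCr8 for Mki67, Top2a, Ccnb1 and for Cdc2a (now Cdk1) and Cdc20, whose levels resembled that of Ccnb1. Capitals mark CCAAT and TTTGAA on either strand (ATTGG and TTCAAA when read on the other).
Mki67, chr1:199952594-199952843, minus strand: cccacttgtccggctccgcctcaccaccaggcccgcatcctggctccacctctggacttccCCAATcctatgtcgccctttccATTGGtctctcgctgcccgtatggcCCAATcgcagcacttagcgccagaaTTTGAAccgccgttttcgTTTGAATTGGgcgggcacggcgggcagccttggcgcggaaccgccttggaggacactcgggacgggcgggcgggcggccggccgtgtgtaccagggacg
Top2a, chr10:84473094-84473343, minus strand: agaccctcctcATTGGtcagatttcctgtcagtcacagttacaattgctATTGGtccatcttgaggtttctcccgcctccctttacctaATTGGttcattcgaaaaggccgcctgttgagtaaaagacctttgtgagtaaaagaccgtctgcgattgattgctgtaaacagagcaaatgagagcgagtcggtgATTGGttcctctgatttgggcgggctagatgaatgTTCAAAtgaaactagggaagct
Ccnb1, chr2:33655226-33655475, minus strand: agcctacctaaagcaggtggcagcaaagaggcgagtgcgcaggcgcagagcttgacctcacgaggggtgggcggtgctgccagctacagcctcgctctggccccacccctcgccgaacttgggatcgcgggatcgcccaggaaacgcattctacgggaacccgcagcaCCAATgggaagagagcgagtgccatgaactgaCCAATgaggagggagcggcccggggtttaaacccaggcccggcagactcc
Cdc2a (Cdk1), chr20:19265043-19265292, plus strand: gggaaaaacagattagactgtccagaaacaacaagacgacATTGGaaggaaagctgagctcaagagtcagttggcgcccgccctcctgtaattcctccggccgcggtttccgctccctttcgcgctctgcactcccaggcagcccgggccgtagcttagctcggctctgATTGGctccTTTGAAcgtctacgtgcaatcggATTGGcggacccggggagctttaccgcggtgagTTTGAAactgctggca
Cdc20, chr5:137255800-137256049, minus strand: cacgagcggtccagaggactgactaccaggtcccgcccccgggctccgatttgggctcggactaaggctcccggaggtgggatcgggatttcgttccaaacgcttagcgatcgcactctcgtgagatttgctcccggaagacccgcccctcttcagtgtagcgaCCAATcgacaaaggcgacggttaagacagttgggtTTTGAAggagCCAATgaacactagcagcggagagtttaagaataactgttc

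The search itself covered 300 bases per listed start, from 250 before to 50 after the start, on both strands, for the CCAAT box, the CHR and 3 words bound by E2F. Over all 33469 such windows, the CCAAT box occurred in 37.5%, the CHR in 18.3% and both in 7.41%. The E2F words were TTCCCGC, found in 4.21% of windows, then TTGGCGC, found in 2.26%, and lastly TTCGCGC, found in 1.51%, and 7.52% of windows held any of them. The first bases of the second E2F word can overlap a CCAAT box read on the other strand. A window was found for 7 of the 10 genes, leaving out Ccnd1, Ccnd2 and Cdkn1c. The Mki67 window held 4 CCAAT boxes, 2 CHR matches and the second E2F word. The Top2a window held 4 CCAAT boxes and 1 CHR match. The Ccnb1 window held 2 CCAAT boxes and 0 CHR matches. A CCAAT box was also present in the windows of Pcna and Cdkn1b, but not in those of Ccne1 and Cdkn1a. These matches are descriptions of letters and not of factor binding.

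Levels are given throughout as log2 of the signal over the median signal of the array, so that 0 is the array median and 1 unit is a doubling. A level depends on the probe, and levels of different probes are not compared. Of the 20 probes, 19 were well above background on all 15 arrays, and each of the 10 genes had such a probe. The exception was the Cdkn1a probe A_44_P515275, which was well above background on 0 arrays and lay at or near the floor of -3.32. For each gene, the probe with the highest mean level is described as its main probe. The range between the highest and the lowest rat was 0.34 to 1.42 over the 19 probes, with a median of 0.58 compared with 0.47 over all tested probes. The tissue label was borne out by Omp, the marker of mature olfactory neurons (7.34 to 7.69 over the arrays), and Gap43, a marker of immature ones (8.57 to 8.92).

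**Figure D1:**
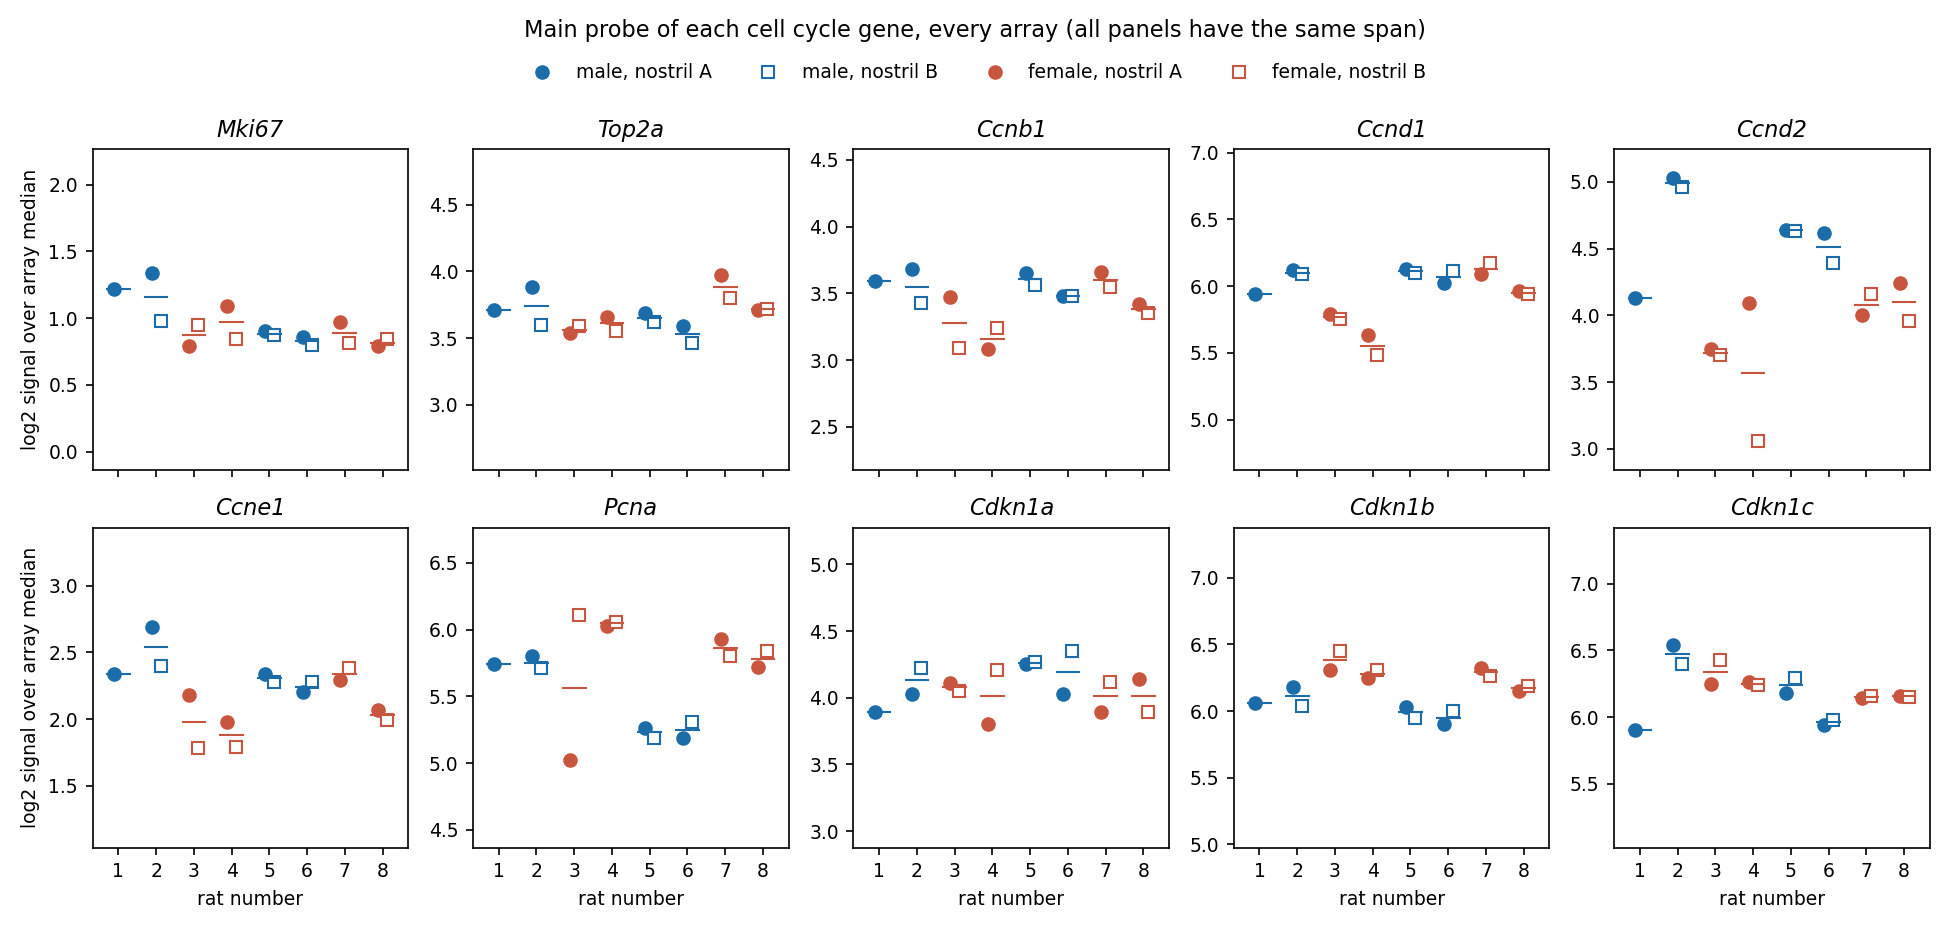
Level of the main probe of each of the 10 genes in each rat; the y axis is log2 of signal over the array median and the panels differ in range but not in span. Points are arrays (nostrils A and B), horizontal bars are rat means, and colors give the sex. Ccnd2 and Cdkn1b are the genes in which the rat means of the sexes do not overlap (Ccnd2 4.13 to 4.99 in males and 3.57 to 4.10 in females).

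Array and slide matter for several of these genes and are described before the results. The arrays of males 1 and 2 shared slide 1 with array 3A (female 3, nostril A). Array 3B lay on slide 2 beside 4A and 4B, the pair from female 4. Males 5 and 6 filled slide 3, and females 7 and 8 filled slide 4. Sex and slide can therefore be told apart only on slide 1. The nostrils of female 3 resembled each other least, with a correlation of 0.16 across probes centered on their means compared with 0.29 to 0.47 in the other 6 rats. Between 26233 and 28741 probes were well above background on an array.

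Mki67 encodes the Ki-67 protein, which is present in all cycling cells and absent from resting ones. Its levels were 1.22, 1.16, 0.88 and 0.83 in males 1, 2, 5 and 6, and 0.87, 0.97, 0.89 and 0.81 in females 3, 4, 7 and 8. Males 1 and 2 were thus above all other rats, and males 5 and 6 lay among the females. The means were 1.02 ± 0.20 in males and 0.88 ± 0.06 in females (SD, n = 4 each), a difference that was not significant by limma (adjusted p = 0.526). Male 2 showed the highest array in nostril A (1.34) and 0.98 in nostril B.

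Top2a encodes topoisomerase II alpha, which untangles replicated chromosomes and is made mainly from S phase to mitosis. With its main probe, A_44_P531770 (chr10:87785829-87785888), males 1, 2, 5 and 6 gave 3.71, 3.74, 3.65 and 3.53, and females 3, 4, 7 and 8 gave 3.56, 3.61, 3.88 and 3.72. The range of 0.36 between rats was smaller than that of 69.5% of the tested probes. The second Top2a probe, A_43_P12148, ordered the animals differently, with 1.34, 1.32, 1.48 and 1.46 in the males and 1.03, 0.90, 1.44 and 1.15 in the females. Females 3, 4 and 8 were below every male with this probe, and female 7 was not. The arrays of slide 2 were its lowest (0.82 to 0.98, and 1.12 to 1.59 elsewhere). The sex difference was -0.27 ± 0.12 (SE), with a limma p of 0.0422 before and 0.273 after adjustment over all probes, compared with 0.03 ± 0.08 for the main probe.

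Ccnb1 encodes cyclin B1, the partner of Cdk1 at the entry into mitosis. Its main probe gave 3.59, 3.55, 3.61 and 3.48 in males 1, 2, 5 and 6, and 3.28, 3.16, 3.60 and 3.38 in females 3, 4, 7 and 8. Females 3, 4 and 8 were below every male, and female 7 lay among the males. The mean was 3.56 ± 0.06 in males and 3.36 ± 0.19 in females, and the difference of -0.20 ± 0.09 (SE) did not pass the test (adjusted p = 0.313, limma). The second probe, A_44_P325479 (chr2:31494914-31494972), ran from 0.03 in male 6 to 0.71 in female 7 and was lower in nostril A of female 3 (-0.36) than on any other array (0.02 to 0.78).

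The probes of a gene did not always give the same pattern over the 15 arrays. The correlation between probes was 0.98 for Ccnd1 and 0.65 to 0.94 over the 6 pairs of Cdkn1c probes. It was 0.67 for Pcna, 0.62 for Cdkn1b, 0.36 for Top2a, 0.11 for Ccne1 and -0.13 for Ccnb1. The statements on Top2a, Ccne1 and Ccnb1 therefore rest on the probe named with them. Arrays of 1 rat and of 1 slide are not independent, and these coefficients are descriptions.

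**Figure D2:**
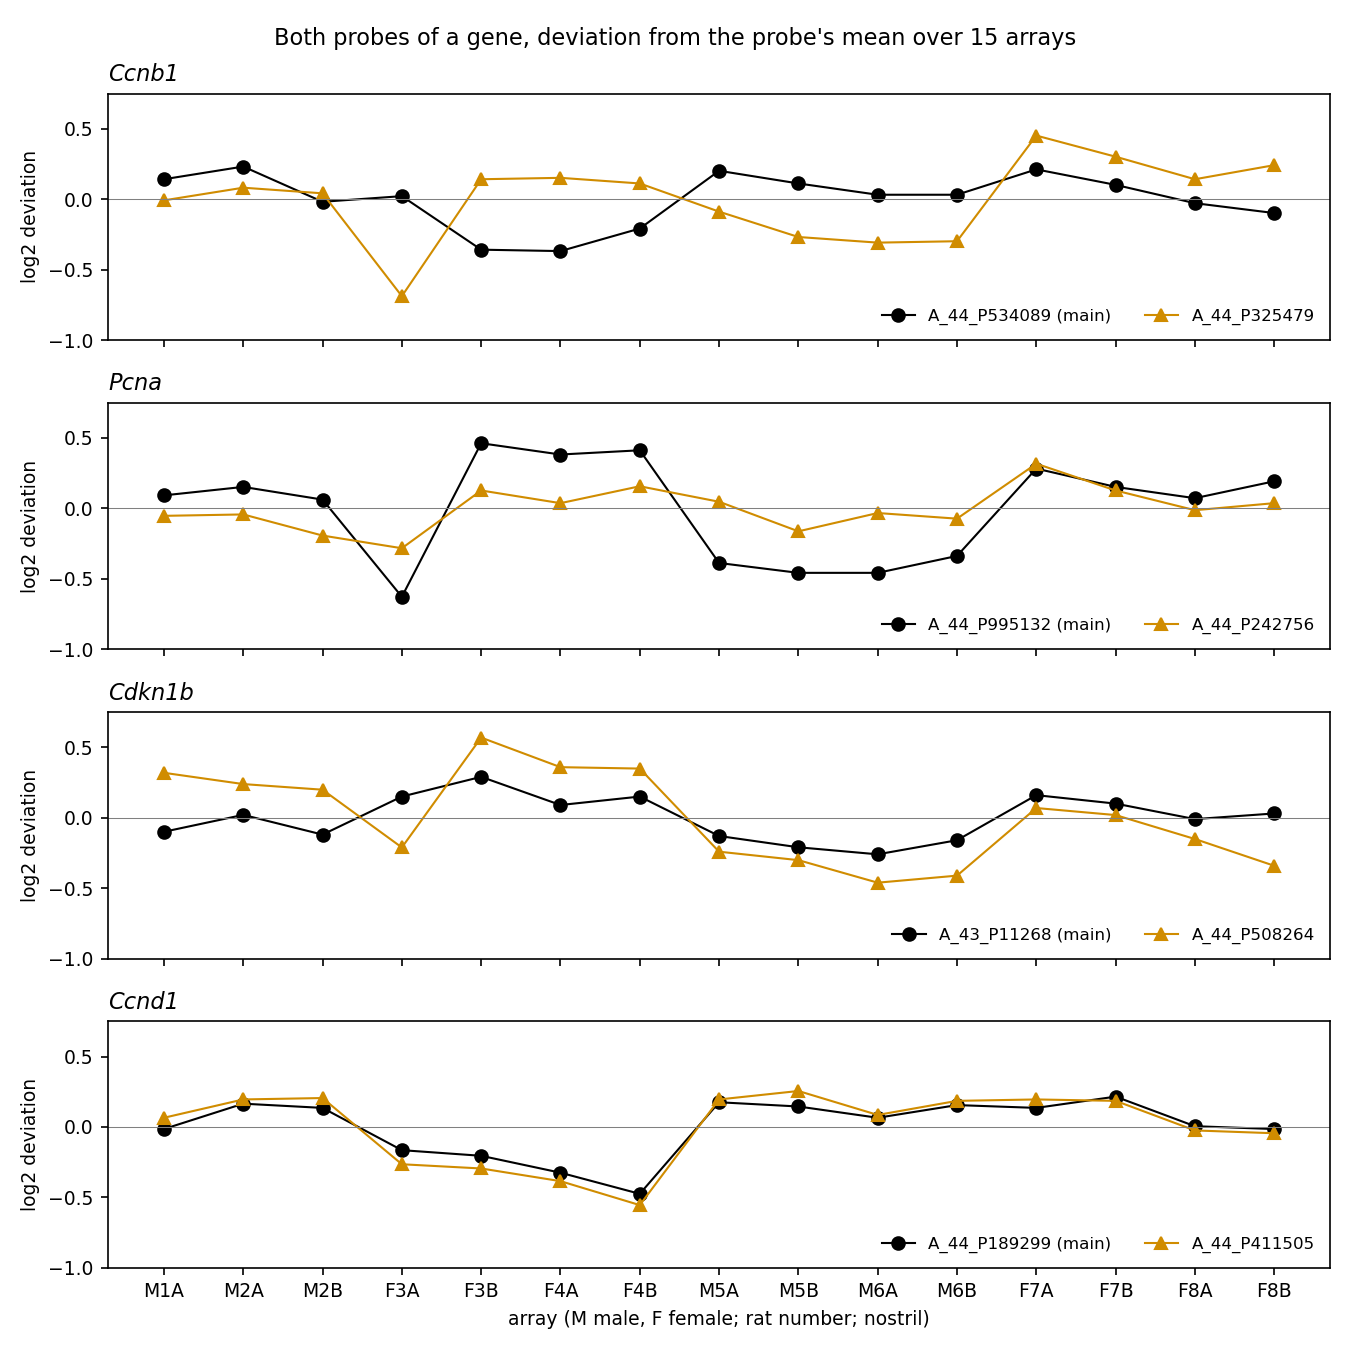
Both probes of Ccnb1, Pcna, Cdkn1b and Ccnd1 on each of the 15 arrays (x axis: sex, rat and nostril); the y axis is log2 level as the deviation from the mean of the probe, with circles for the main probe and triangles for the other. The Ccnd1 lines run together (r = 0.98), whereas those of Ccnb1 do not (r = -0.13), and the second Ccnb1 probe and the main Pcna probe dip in array 3A (-0.36 and 5.02).

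Of the 5 genes whose level followed the main Ccnb1 probe most closely, 4 were in the list of G2 and mitosis genes. That list holds 57 of the 27574 tested probes and was chosen with earlier results of these data known. Among 12952 named probes, the highest correlations over the 15 arrays were with Bub1b (0.96), Cdc2a (0.94), Cdc20 (0.93), Ccnf (0.92) and Srcrb4d (0.91). Bub1b is a kinase of the spindle checkpoint, Cdc2a is the catalytic partner of cyclin B1, Cdc20 activates the ligase that destroys it, and Ccnf is cyclin F. Srcrb4d, a scavenger receptor gene, was in none of the cell cycle lists, and its lowest arrays were those of slide 2 (2.63 to 2.89, and 2.93 to 3.28 elsewhere). Bub1b (probe A_44_P311771) measured 3.02, 3.00, 3.06 and 2.95 in males 1, 2, 5 and 6 and 2.57, 2.42, 2.98 and 2.78 in females 3, 4, 7 and 8. Cdc2a measured 5.65, 5.64, 5.72 and 5.66 in the males and 5.40, 5.22, 5.76 and 5.60 in the females. With these probes of Bub1b, Cdc2a and Ccnb1, females 3 and 4 were the lowest rats and female 7 was within the males or above them. Another Bub1b probe, A_43_P10723, had female 3 lowest (1.14), then male 6 (1.24) and female 4 (1.27), and its lowest array was 3A on slide 1 (0.98). A RefSeq window was found for 4 of these 5 genes. The CHR was in 4 of the 4 windows, the CCAAT box in 3 and an E2F word in 1.

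**Figure D3:**
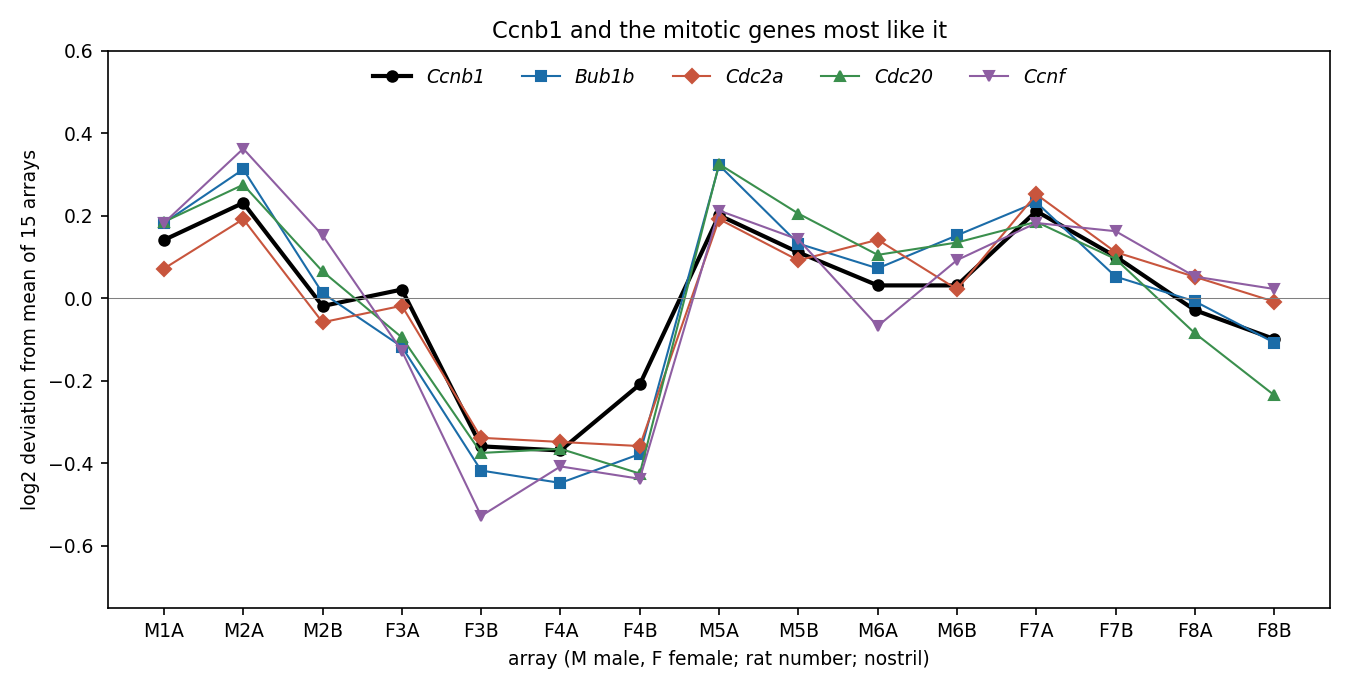
Log2 levels of Ccnb1 (main probe), Bub1b (A_44_P311771), Cdc2a, Cdc20 and Ccnf on each of the 15 arrays (x axis: sex, rat and nostril), as the deviation from the mean of each probe. The 3 arrays of slide 2 (female 3B, 4A and 4B) are the lowest for each probe drawn, at 3.08 to 3.24 for Ccnb1 compared with 3.35 to 3.68 on the other 12 arrays.

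The low values of these mitotic genes coincided with a slide. Ccnb1 was 3.08 to 3.24 on the 3 arrays of slide 2 and 3.35 to 3.68 on the other 12 arrays, and nostril A of female 3, on slide 1, gave 3.47. Cdc2a was 5.22 to 5.24 on slide 2 and 5.52 to 5.83 elsewhere, and Cdc20 was 3.83 to 3.89 and 4.02 to 4.58. Of the nostrils of female 3, the array on slide 1 thus lay among the other arrays and the one on slide 2 among the low ones. Slide 2 held both arrays of female 4, so that the slide and this animal cannot be told apart.

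Ccnd1, Ccnd2 and Ccne1 encode cyclins D1, D2 and E1, which carry cells through G1. Ccnd1, measured at chr1:205511035-205511094, gave 5.94, 6.10, 6.11 and 6.07 in males 1, 2, 5 and 6 and 5.77, 5.55, 6.13 and 5.95 in females 3, 4, 7 and 8. Female 4 was the lowest rat and female 3 the next, while the other 6 rats lay between 5.94 and 6.13. Its second probe gave the same order at the low end (5.35 in female 4 and 5.55 in female 3). The nostrils of a rat differed little (within-rat SD 0.05), and rats of the same sex differed by limma's F test for both probes (adjusted p = 0.00534 and 0.00297). Ccnd1 also lay lower on slide 2 (5.48 to 5.75) than elsewhere (5.79 to 6.17), and with slide as a block its adjusted p was 0.0267 and 0.0162. Both calls were also lost under background correction by normexp (adjusted p = 0.917 and 0.846, limma) and with neighboring rats only (0.187 and 0.178). They were lost in the deposited ratio table (0.0238 and 0.0163) and without female 4, female 7 or female 8 (0.0104 to 0.0444). The call of the main probe was also lost without male 2 (0.0103) or male 5 (0.0104).

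Ccnd2 varied more than any other member. Males 1, 2, 5 and 6 measured 4.13, 4.99, 4.64 and 4.51, and females 3, 4, 7 and 8 measured 3.72, 3.57, 4.08 and 4.10. Every male was above every female, although male 1 (4.13) and female 8 (4.10) were nearly level. The range between rats was 1.42 (2.68-fold), which 3.75% of the tested probes exceeded. Means were 4.57 ± 0.36 in males and 3.87 ± 0.26 in females (SD, n = 4 each), or 1.62-fold higher in males. This difference of -0.70 ± 0.18 (SE) had a limma p of 0.00368 before adjustment and 0.124 after it, and was not significant at 1%. On slide 1, which held both sexes, nostril A of female 3 measured 3.75 and the 3 male arrays 4.13 to 5.03. The nostrils of female 4 were far apart, at 4.09 in A and 3.06 in B.

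The genes most like Ccnd2 over the 15 arrays were Gamt (r = 0.97), Cited1 (0.97), Hes5 (0.96), Cnp1 (0.96) and Edg5 (0.95). Hes5, a target of Notch signaling, gave 2.71, 3.48, 3.00 and 2.95 in males 1, 2, 5 and 6 and 1.80, 1.70, 2.22 and 2.70 in females 3, 4, 7 and 8. Male 1 and female 8 were again the nearest rats across the sexes. In nostrils A and B of female 4, Hes5 was 2.61 and 0.80, Gamt 2.05 and 1.16 and Cited1 2.57 and 1.85, each lower in B as Ccnd2 was. Their sex differences did not pass the test (adjusted p = 0.115 to 0.204, limma). Cnp1 encodes an enzyme of myelin-forming glia.

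Markers of ensheathing and Schwann cells, the glia of the olfactory nerve, are given beside Ccnd2. The summed level of the 6 tested probes was 8.14 to 8.93 in males and 7.56 to 8.18 in females, and 0 of the 6 were higher in females (52.1% of all probes were). Sox10 differed between the sexes by -0.32 and Fabp7 by -0.57 (adjusted p = 0.124 and 0.229, limma). In female 4 the summed level was 8.62 in nostril A and 6.93 in nostril B. The orders were not the same, since female 8 (8.18) was above males 1, 5 and 6 (8.14, 8.15 and 8.14) in the summed level and below them in Ccnd2. S100b was well above background on 0 arrays. Few probes were also higher in females for horizontal basal cells (0 of 4), granulocyte precursors (0 of 5), bone cells (1 of 9) and red cells (2 of 8). More were for mature neurons (6 of 8), sustentacular cells (5 of 6), muscle (2 of 3) and ciliated cells (3 of 3). In female 4 the summed bone cell markers were 12.29 in nostril A and 11.44 in nostril B. The part of any of these cells in the Ccnd2 level was not tested.

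**Figure D4:**
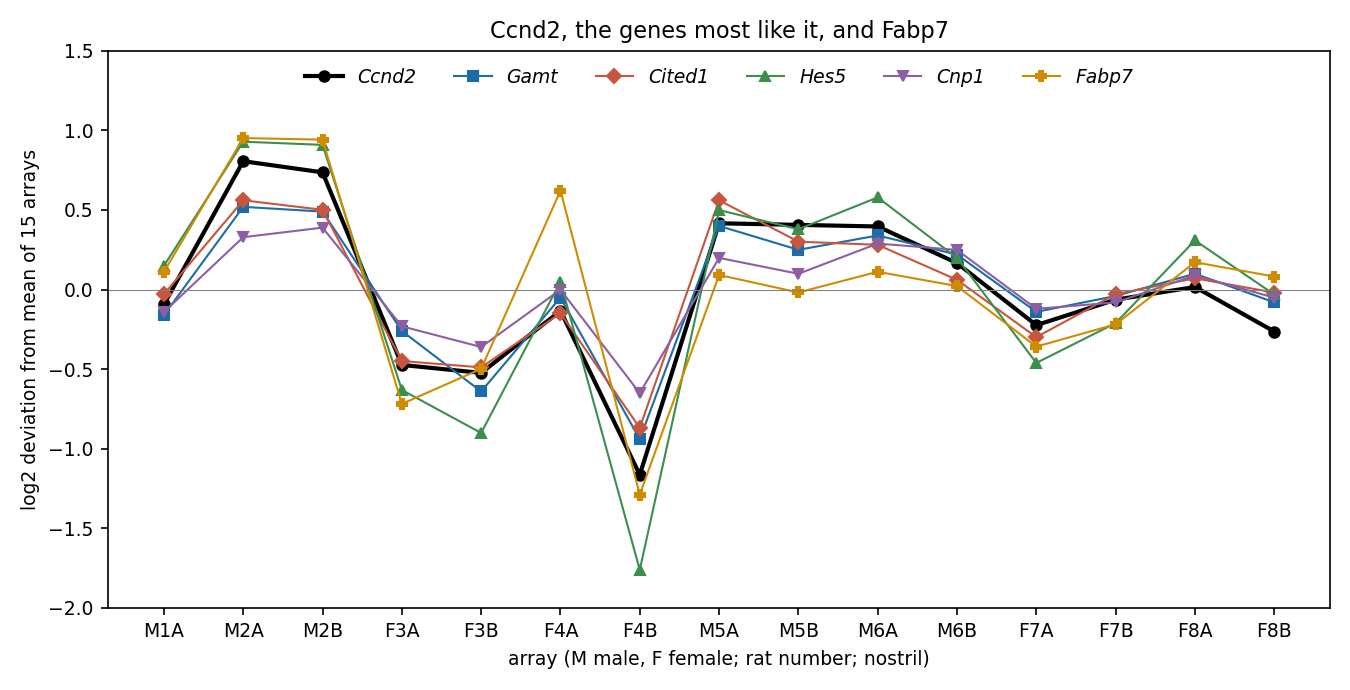
Log2 levels of Ccnd2, of Gamt, Cited1, Hes5 and Cnp1 and of the glial marker Fabp7 on each of the 15 arrays (x axis: sex, rat and nostril), as the deviation from the mean of each probe. Both arrays of male 2 are high in all 6 genes and nostril B of female 4 is the lowest array (Ccnd2 3.06, Hes5 0.80), while Fabp7 alone is high in nostril A of female 4 (8.42).

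Ccne1 was measured at chr1:90646308-90646367 with 2.34, 2.54, 2.31 and 2.24 in males 1, 2, 5 and 6 and 1.98, 1.88, 2.34 and 2.03 in females 3, 4, 7 and 8. Females 3, 4 and 8 were again below every male, and female 7 was among the males. The difference of -0.30 ± 0.11 (SE) was not significant after adjustment (limma, unadjusted 0.021, adjusted p = 0.209). As for Ccnb1, slide 2 held the lowest arrays (1.78 to 1.98, and 1.99 to 2.69 elsewhere). The second probe, A_44_P182412, was between -1.83 and -1.35 in all rats, with female 7 lowest and male 6 highest.

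Pcna, the sliding clamp of DNA polymerases, showed another pattern. Its main probe (chr3:119914570-119914629) gave 5.74, 5.75, 5.23 and 5.25 in males 1, 2, 5 and 6 and 5.56, 6.05, 5.86 and 5.78 in females 3, 4, 7 and 8. Males 5 and 6 were the lowest rats and female 4 was the highest. The nostrils of female 3 were at opposite ends of the female arrays, at 5.02 in A and 6.11 in B. The sex difference was 0.32 ± 0.15 (SE; adjusted p = 0.31, limma). The second probe had the same low array in females (2.01 in nostril A of female 3), but males 5 and 6 (2.23 and 2.24) did not stand apart from males 1 and 2 (2.24 and 2.18). Slide 2 held the highest arrays of the main probe (6.03 to 6.11), the reverse of Ccnb1. Its most similar genes were Cbx3 (r = 0.98), Pdzd11, Mrps15, Gtf2h2 and Nipa2 (0.97 each), none of which was in the replication list.

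The sex difference of Pcna turned with the slide. Within slide 1, nostril A of female 3 (5.02) was below the 3 male arrays (5.71 to 5.80), and with slide as a block the difference was -0.73 (adjusted p = 2.03e-04, limma). The second Ccnb1 probe turned in the same way, from 0.22 to -0.72 (adjusted p = 0.00467). Both estimates rest on that single female array, and the fit counts the arrays of a rat as independent, which they are not. In that fit 641 of all 27574 probes passed 1%. Over all 21 settings, the main one included, the adjusted p of these probes ranged up to 0.926 and 0.893.

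Cdkn1a, Cdkn1b and Cdkn1c encode p21, p27 and p57, the inhibitors of cyclin-dependent kinases. Cdkn1a is a target of p53 and is made after DNA damage. It gave 3.89, 4.13, 4.26 and 4.19 in males 1, 2, 5 and 6 and 4.08, 4.01, 4.01 and 4.01 in females 3, 4, 7 and 8 (probe A_44_P914438, chr20:7386823-7386882). The females lay within the range of the males, and no comparison passed the test (sexes, adjusted p = 0.597, limma). This probe was printed 10 times, with a median SD of 0.0667 between spots of an array, compared with a within-rat SD of 0.17. Mdm2, another p53 target, was the second gene most like it (r = 0.79), after Atp2a2 (0.82).

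Cdkn1b keeps resting cells out of the cycle. Its main probe (chr4:172091286-172091345) gave 6.06, 6.11, 5.99 and 5.95 in males 1, 2, 5 and 6 and 6.38, 6.28, 6.29 and 6.17 in females 3, 4, 7 and 8. Every female was above every male. Means were 6.03 ± 0.07 and 6.28 ± 0.09 (SD, n = 4 each), or 1.19-fold higher in females. The difference of 0.25 ± 0.06 (SE) had a limma p of 0.00252 and an adjusted p of 0.115, and was not significant at 1%. Repeat spots had a median SD of 0.0301 on an array. On slide 1, nostril A of female 3 gave 6.31 and the 3 male arrays 6.04 to 6.18.

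The second Cdkn1b probe did not share that separation. A_44_P508264 (chr4:172090371-172090430) gave 5.00, 4.90, 4.41 and 4.25 in the males and 4.86, 5.04, 4.73 and 4.43 in the females. Males 1 and 2 were among the highest rats and males 5 and 6 the lowest. The sex difference was 0.13 ± 0.18 (SE; adjusted p = 0.764, limma). Its sign turned with slide as a block (-0.46, adjusted p = 0.0653, limma), where it rests on array 3A and the arrays of a rat count as independent. The difference was -0.01 without male 6. Over the alternatives the adjusted p was 0.0653 to 0.993.

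Cdkn1c is an imprinted gene in rodents and marks cells that have left the cycle. Its main probe gave 5.90, 6.47, 6.24 and 5.96 in males 1, 2, 5 and 6 and 6.34, 6.25, 6.15 and 6.16 in females 3, 4, 7 and 8. Male 1 was the lowest rat and male 2 the highest, although both were on slide 1. The probe A_44_P374618 gave 4.82 in male 1 and 5.45 in male 2, also the lowest and highest rats, whereas with A_42_P799390 male 1 was lowest (5.03) and male 5 (5.66) slightly above male 2 (5.64). Over the 4 probes, which lie between chr1:203988641 and chr1:203990204, male 2 exceeded male 1 by 0.58 to 0.65. Rats of the same sex differed in 3 of the 4 probes (limma's F test, adjusted p = 0.00296 to 0.00398), and the main probe had an adjusted p of 0.0101. These 3 calls were lost under normexp (adjusted p = 0.829 to 0.918, limma) and with neighboring rats only (0.0121 to 0.0145), and 2 of them without male 2 (0.0167 and 0.0228). The call of A_42_P799390 was also lost without male 1, male 5, female 4, female 7 or female 8 (0.0107 to 0.0191), and in the deposited ratio table (0.0178). The sex differences were -0.11 to 0.08 (adjusted p = 0.707 to 0.917, limma).

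Between the sexes, 0 of the 19 member probes passed 1% by limma, and 12 of all 27625 tested probes did (0.0434%). At 5% the counts were 0 of 19 and 20 of all probes (0.0724%). At an unadjusted p under 0.05 the count was 5 of 19 (26.3%), compared with 17.1% of all probes. These were Ccnd2, Cdkn1b (main probe), Ccne1 (main probe), Top2a (A_43_P12148) and Ccnd1 (A_44_P411505), of which Cdkn1b was higher in females and the others lower. The rats of the sexes did not overlap for 2 of the 19 probes (10.5%) and for 11.3% of all probes, so the share was near the background. The median difference, female minus male, was -0.09 over the members and 0.01 over all probes. When the 15 arrays were treated as independent samples, Ccnd2 and Cdkn1b passed 1% (adjusted p = 0.0079 and 0.00439, limma), and 1031 of all 27574 probes did. Arrays of a rat are not independent, however.

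Between nostrils A and B, with rat as a block, 0 of 19 member probes passed 1% by limma, and 0 of 27574 probes did (0%). At an unadjusted p under 0.05 there were 2 of 19 (10.5%; 5.89% of all probes), and both were Top2a probes. The main Top2a probe was lower in nostril B in 5 of 7 rats (-0.10 ± 0.04, SE) and the other probe in 6 of 7 (-0.12 ± 0.05), each with an adjusted p of 0.781. Mki67 was lower in B in 5 of 7 rats (-0.09 ± 0.07) and Ccnd2 in 6 of 7 (-0.22 ± 0.12). Leaving out a rat gave -0.13 to -0.05 for Mki67 and -0.28 to -0.08 for Ccnd2, with -0.08 without female 4, whose nostrils differed by -1.04. The median difference over the members was -0.01, compared with 0.01 over all probes.

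Between rats of the same sex, 5 of 19 member probes passed 1% by limma's F test (26.3%; 2.79% of all 27574 probes). They were the pair of Ccnd1 probes and 3 of the 4 Cdkn1c probes, so 2 genes account for them. At 5% the count was 6 of 19 (16.1% of all probes), and at an unadjusted p under 0.05 it was 8 (37.1% of all probes). Probes of a gene read the same transcript and are not independent. The error in this test is the difference between nostrils, which is small for Ccnd1 and Cdkn1c (within-rat SD 0.04 to 0.07) and larger for Ccnd2 and Pcna (0.30 each for the main probes). Ccnd2 had the widest range among the members and did not pass (adjusted p = 0.193). Except in female 3, the nostrils of a rat share a slide, so rat and slide cannot be told apart where rats on different slides are compared. With slide as a block 3 member probes passed (148 of all probes), all of Cdkn1c, and with neighboring rats only 0 did (16 of all probes). Under background correction by normexp 0 passed (78 of all probes), although male 2 exceeded male 1 by 0.58 to 0.68 over the Cdkn1c probes there too. The median within-rat SD of all probes was then 0.21 instead of 0.12. Without nostril A of female 3 the count was 8 (1027 of all probes, compared with 768 when it was kept).

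Other genes of the cycle were described from 6 lists with 157 genes, of which 130 were found and 157 probes were tested. None passed 1% between the sexes (39 at an unadjusted p under 0.05, where 17.1% of all probes are) or nostrils (18 at an unadjusted p under 0.05, where 5.89% of all probes are), and 5 of 157 did between rats of the same sex (3.18%; 2.79% of all probes). These 5 were Cdc25b, Hmmr, Cenpf and Ttk from G2 and mitosis and Mcm5 from DNA replication. Cdc25b, a phosphatase that activates Cdk1, gave 4.43, 2.86, 4.76 and 5.74 in males 1, 2, 5 and 6 and 2.38, 4.96, 2.50 and 3.05 in females 3, 4, 7 and 8 (adjusted p = 2.39e-04, limma's F test). The summed red cell markers were high in the same rats (9.66, 7.92, 9.88 and 10.54 in the males and 7.12, 9.80, 6.86 and 7.84 in the females), and their part in the Cdc25b level was not tested. Ttk, a spindle checkpoint kinase, had its highest level in male 1 (0.47) and its lowest in male 6 (-0.86). Mcm5, a subunit of the replicative helicase, was lowest in females 3 and 4 (0.28 and 0.14) and 0.76 to 1.17 in the other rats.

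The list of G2 and mitosis (57 probes tested) had the largest share of the 6 lists at an unadjusted p under 0.05 between nostrils. Of its probes, 41 (71.9%) were lower in nostril B, compared with 44.2% of all probes, and the median difference was -0.04, compared with 0.01. At an unadjusted p under 0.05, 13 (22.8%) differed, 11 of them lower in B, compared with 5.89% and 2.45% of all probes. Cdc2a, Kif20a, Cdc20 and Ube2c were among them (unadjusted p = 0.0063, 0.0110, 0.0129 and 0.0169; adjusted p = 0.781 for each, limma). Globose basal cell markers were also lower in B for 5 of 6 probes and horizontal basal cell markers for 4 of 4 (Krt14 was well above background on 0 arrays). So were red cell markers for 8 of 8 probes, granulocyte precursor markers for 5 of 5 (median -0.86), bone cell markers for 8 of 9, muscle markers for 3 of 3 and ensheathing cell markers for 5 of 6. Markers of motile ciliated cells were lower in B for 0 of 3 probes (median 0.18), those of mature neurons for 1 of 8, of sustentacular cells for 2 of 6, of immature neurons for 3 of 6 and of leukocytes for 5 of 10. The part of these cells was not tested. Between the sexes, 15 of the 57 (26.3%) were higher in females, compared with 52.1% of all probes, with a median of -0.11. The median deviation of the list was -0.10, -0.13 and -0.20 on arrays 3B, 4A and 4B of slide 2, and 0.18 and 0.07 on arrays 7A and 7B, so the females were not alike. The probes of this list follow each other, so these counts are not of independent measurements.

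In the other 5 lists the counts were as follows. Of 41 DNA replication probes, 14 (34.1%) were higher in females (median -0.04) and 24 (58.5%) lower in B. Of 13 probes of G1 cyclins, kinases and partners, 8 were higher in females and 3 lower in B. Of 13 Rb and E2F probes, 5 were higher in females and 6 lower in B, and of 5 probes of other kinase inhibitors, 3 and 5 (median differences 0.18 between the sexes and -0.07 between nostrils). Of 28 probes of the p53 response, 15 were higher in females and 15 lower in B. The widest and narrowest ranges between rats were those of Ccne2 (1.54) and Ccnh (0.23) in G1, Myc (0.66) and Rbl2 (0.23) in the Rb and E2F family, and Cdkn2b (0.78) and Cdkn2d (0.45) among the inhibitors. In the others they were Tk1 (1.53) and Dut (0.15) in replication, Cdc25b (3.36) and Foxm1 (0.14) in mitosis, and Atm (1.1) and Bax (0.12) in the p53 response.

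The promoter letters of the lists were not alike. A window was found for 43 genes of the G2 and mitosis list, and 31 of these (72.1%) held the CHR, 32 (74.4%) the CCAAT box, 25 (58.1%) both and 8 (18.6%) an E2F word. Of 27 replication genes with a window, 2 (7.41%) held the CHR, 15 (55.6%) the CCAAT box and 19 (70.4%) an E2F word. Each gene was counted with the first start listed, which leaves out further starts of Kif2c, Uhrf1 and Dut. The further Dut window held the CHR. The counted Uhrf1 window held no E2F word, whereas each of its further windows did. The shares over all windows, further starts included, were 18.3% for the CHR, 37.5% for the CCAAT box and 7.52% for any E2F word. Mki67 and Top2a, with both the CHR and the CCAAT box, carried the letters frequent in the mitosis list.

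It was then asked whether the main probes of the 10 genes rise and fall together, over the 8 rats and over the 7 differences between nostrils (45 pairs each). Over rats, 0 of 45 pairs passed 5% after adjustment by the exact permutation test on Pearson's r, and 0 on Spearman's rho, while 8 had an unadjusted p under 0.05 on r. The strongest were Ccnb1 with Ccnd1 (r = 0.91, exact permutation p = 0.00278, rho = 0.83 with p = 0.0154, adjusted p = 0.0625) and Ccnb1 with Ccne1 (r = 0.90, p = 0.00203, rho = 0.76 with p = 0.0368, adjusted p = 0.0625, exact permutation). Without the 2 rats farthest from the median of Ccnb1, females 3 and 4, r was 0.49 and 0.73, so the first relation rests on those animals. With the slide means removed, r was 0.56 and 0.75 (adjusted p = 0.362 and 0.234, exact permutation), and the pairs that passed were 3 others, Mki67 with Pcna, Top2a with Ccnb1 and Cdkn1a with Cdkn1c. With arrays scaled to the 75th percentile both Ccnb1 pairs passed 5% (adjusted p = 0.0446 and 0.0324, exact permutation). Over all 14 alternatives the adjusted p was 0.0179 to 0.408 for the first pair and 0.0167 to 0.408 for the second. Mki67 with Top2a had an r of 0.26 over rats.

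Over the nostril differences, where animal and, except in female 3, slide are shared, 0 of 45 pairs passed 5% by exact permutation and 4 had an unadjusted p under 0.05. The strongest pair was Mki67 with Top2a (r = 0.91, exact permutation p = 0.00595, rho = 0.89 with p = 0.0123, adjusted p = 0.268). The difference B minus A of Mki67 was -0.36, 0.16, -0.25, -0.03, -0.06, -0.16 and 0.05 in rats 2 to 8. That of Top2a was -0.29, 0.05, -0.10, -0.08, -0.13, -0.17 and 0.00. Both genes were lower in B in rats 2, 4, 5, 6 and 7 and not in rats 3 and 8. Without rats 2 and 3, r was 0.67. Ccnb1 did not share this order (r = -0.35 with Mki67 and -0.14 with Top2a).

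**Figure D5:**
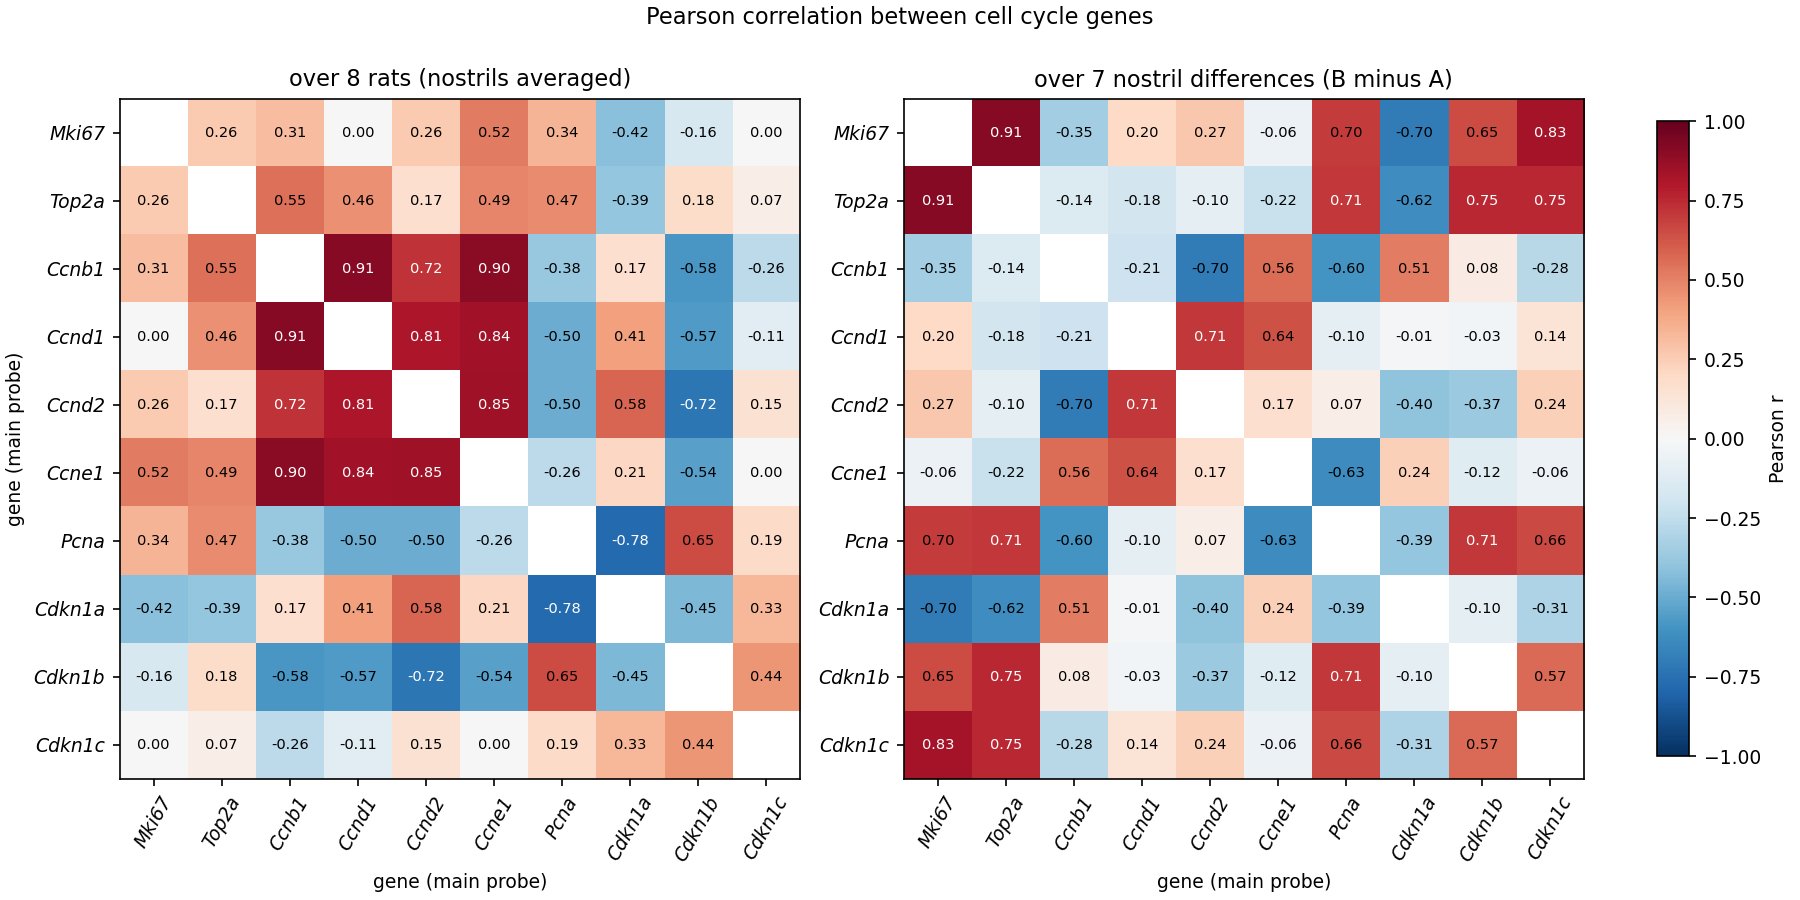
Pearson correlation between the main probes of the 10 genes, over the rat means of 8 rats (left) and over the B minus A differences of 7 rats (right); color gives r from -1 to 1 and the diagonal is blank. The pairs among Ccnb1, Ccnd1, Ccnd2 and Ccne1 have r of 0.72 to 0.91 over rats and -0.70 to 0.71 over nostril differences, the difference between panels was not tested, and no pair passed 5% after adjustment in either panel.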

How the data were processed

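Olfactory epithelium RNA was measured on 15 Agilent whole rat genome arrays. Per the file headers, the authors extracted the deposited intensities with Feature Extraction 9.5.1.1, which removed local background and spatial trends but did not scale between arrays. The authors' deposited ratio table divides each signal by the medians of its array and of its probe, and served as an alternative only. Spots marked as non-uniform or population outliers were dropped and repeat spots averaged. Each signal was then scaled to its array's median, floored at 0.1 of it (-3.32) and log2-transformed. Detection was the scanner software's call of well above background, by majority of spots. Probes detected on at least 7 arrays were tested (27625 for the sexes, 27574 with single arrays) in limma 3.58.1 (R 4.3.3; lmFit and eBayes with trend, two-sided), Benjamini-Hochberg adjusted over all probes at 1%, as in the study. Sexes were compared on 4 against 4 rat means, nostrils with rat as a block, and rats of the same sex by the moderated F-statistic. The labels only number the rats. For the sexes, p-values are set against the spread between these animals. For nostrils and for rats of the same sex, they are set against the spread between the nostrils of a rat. The number of arrays limits precision. Correlations used exact permutation, adjusted over 45 pairs. The scripts were tested on simulated data. The members, gene lists, motifs and tests were chosen with earlier results of these data known. All 10 genes are named, with further genes by a rule: list genes past 1% or with the widest or narrowest range, and the 5 named probes most correlated with each main probe, without those of the same gene; a few genes under this rule are not reported here. Alternatives changed the scaling, background correction, floor, filter, slide term and test, or left out rats. Promoters are those of RefSeq (GRCr8).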

Additional observations from a re-analysis of the deposited data

Results flagged for a closer look

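In 5 of 38 groups of arrays (each probe in each sex), the highest or lowest array stood apart by Dixon's test. Chance alone gives this in about 1 in 20 groups of independent arrays. Arrays of a rat or slide and probes of a gene are not independent, so that rate does not hold here. Nostril A of female 3 was the lowest female array for the second Ccnb1 probe (-0.36, the next being 0.44) and for the main Pcna probe (5.02, the next being 5.72). Nostril B of female 4 was the lowest female array for Ccnd2 (3.06, the next being 3.70). Nostril A of male 2 was the highest male array for Ccne1 (2.69, the next being 2.40). Nostril B of female 3 was the highest female array for the main Cdkn1c probe (6.43, the next being 6.26). For the Ccnd1 probe A_44_P411505, nostril B was below nostril A in all 4 females and above it in all 3 males with both nostrils. The mean differences were 0.11 apart, the nearest animals were at -0.01 and 0.01, and the difference between the sexes was not tested. The other Ccnd1 probe, A_44_P189299, did not share this pattern (-0.03 in males 2 and 5 and 0.07 in female 7).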

How the results depend on the processing

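The 19 expressed member probes and the absence of calls between nostrils held under every alternative run for them. Between the sexes the count of 0 (12 of all probes) became 2 with 15 arrays as independent samples (Ccnd2 and Cdkn1b, with 1031 of all probes). It became 2 with slide as a block (Pcna and the second Ccnb1 probe, both with the sign turned, with 641 of all probes). Both settings count the arrays of a rat as independent. The methods' t-test at 1% gave 1 before Benjamini-Hochberg (Cdkn1b, with 1604 of all probes) and 0 after it. Leaving out a rat gave 0 to 0. Between rats of the same sex the 5 calls became 0 with pairs of neighboring rats (16 of all probes) and 0 with normexp (78 of all probes), where the median within-rat SD of the members was 0.28 instead of 0.13. They became 2 with the deposited ratio table (356 of all probes), 3 with slide as a block (148 of all probes) and 8 without nostril A of female 3 (1027 of all probes). Leaving out a rat gave 2 to 8 (8 without female 3, and 2 without male 2, female 4, female 7 or female 8), with 186 to 898 of all probes. In the main setting 768 of all probes passed. Correlated pairs over rats rose from 0 to 3 with the 75th percentile, 2 with quantile normalization, 2 with normexp, 2 without nostril A of female 3, and 0 to 1 when a rat was left out. With slide means removed there were 3, but the permutation test is not exact there. Over nostril differences they rose from 0 to 7 with normexp. The causes were not tested. Leaving out nostril A of female 3 and pairing neighboring rats were chosen after seeing the data. No paired analysis was possible because the rats of the sexes share no numbers.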

Other observations

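Further genes resembled the members over the 15 arrays, with r given as a description. For Ccnd1 these were Ubqln1 (0.96) and, at 0.95, Mcm2, Slc15a4, Parva and Bmp7. Mcm2, a subunit of the replicative helicase, was lowest in females 4 (2.86) and 3 (3.08), as Ccnd1 was, and 3.24 to 3.59 in the other rats. For Cdkn1b they were Nono and Snx6 (0.97), Vps29 and Ubxd2 (0.96), none of them a cell cycle gene by the lists used. For Ccne1 they were Hyal2, Cables1, Ptk9l and Ccnf. For Mki67 they were Mapk4, Sgkl, Taf15, Nr4a1 and Cdk5rap2. For Top2a they were Bub1b (0.84), Ing4, Ccdc5, Pparg and Nagpa, and for Cdkn1c they were Cldn11, Nfix, Tfpi, Vasp and Lox.

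Markers of other cell types were also measured. Summed bone cell markers were 11.99 to 13.23 in males and 11.86 to 12.64 in females, those of leukocytes 7.02 to 7.47 and 6.99 to 7.27, and those of granulocyte precursors 3.09 to 3.63 and 2.59 to 3.26. Mpo was well above background on 2 arrays. Muscle markers reached 4.50 in nostril A of female 7 and 1.02 to 2.81 on the other arrays. Globose basal cells gave 8.30 to 8.51 in males and 8.07 to 8.39 in females, and horizontal basal cells 6.40 to 6.94 and 6.40 to 6.97. Mature neurons (10.21 to 10.45; 10.27 to 10.50), immature neurons (10.58 to 10.76; 10.43 to 10.73), sustentacular cells (12.14 to 12.35; 12.26 to 12.41) and ciliated cells (8.66 to 8.97; 8.81 to 9.0) varied least among the lists. Their part in the levels of the cell cycle genes was not tested.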
